A study of Homo sapiens with 20 samples.

Results

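Transcript levels of 10 genes that receive, block or report Wnt signals were followed in tumour cells made resistant to prexasertib. They were the receptors LGR4, LGR5 and LGR6, the secreted modulators DKK1, DKK2 and DKK3, the Wnt target genes AXIN2 and LEF1, and the membrane ubiquitin ligases ZNRF3 and RNF43. The genes were found by their symbols, and all 10 were measured, each by 1 transcript cluster (the set of probes for the transcripts of a gene), among 17687 gene symbols on the array. The family was put together with some of these data in view, since the rise of DKK2 in NCI-H520 and that of LGR5 in SJCRH30 were already known. Values of the 10 genes in resistant against parental cells of these lines are therefore given as a description, with a standard error (SE) and without a p-value. Tests are given for Rh41, and for the parental lines except for DKK2 and LGR5, whose parental values entered the choice.

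The data came from 20 arrays, on which RNA of 3 human tumour lines was measured in parental cells and in cells resistant to prexasertib, an inhibitor of the DNA damage checkpoint kinase CHK1. NCI-H520, a squamous lung carcinoma line, had 3 parental and 3 resistant arrays, and its resistant cells had been selected in culture with rising drug concentrations. SJCRH30, an alveolar rhabdomyosarcoma line, had 3 parental and 3 resistant arrays. Its parental cells were grown out of a sensitive tumour of a vehicle-treated athymic mouse, and its resistant cells out of a tumour that had regrown after prexasertib, so this pair differed in the tumour of origin as well as in resistance. Rh41, also an alveolar rhabdomyosarcoma line, had 3 parental and 5 resistant arrays, with resistance again selected by rising drug concentrations. By the study, 5 separate Rh41 cultures were kept in DMSO and 5 in prexasertib. The labels do not say which culture an array measured. If the arrays came from these cultures, p-values for Rh41 measure the spread between them. Arrays of a group are biological replicates by their labels, but those of an NCI-H520 or SJCRH30 group came from 1 line, and p-values there measure the spread between its cultures. By the study's methods, the cells grown from SJCRH30 tumours were passaged with prexasertib. The sources used here do not say for any line if drug was present when RNA was harvested, and its direct effects cannot be told apart from those of resistance.

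Wnt proteins bind Frizzled receptors and their co-receptors LRP5 and LRP6, and this spares beta-catenin from destruction so that it can activate target genes with factors such as LEF1. RNF43 and ZNRF3 remove Frizzled receptors from the cell surface, and R-spondins bound to LGR4, LGR5 or LGR6 take these ligases away and so raise the response to Wnt. DKK1 binds LRP5 and LRP6 and blocks the pathway, DKK2 can block or weakly activate it depending on the cell, and DKK3 is a relative that does not act through these co-receptors in the same way. AXIN2, LEF1, RNF43, ZNRF3 and LGR5 are themselves induced by beta-catenin in many tissues, and LGR5 is best known as a marker of stem cells of the gut.

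Values are deposited log2 values. The 8 Rh41 arrays had been normalized apart from the other 12, on a scale with a standard deviation of 1.99 against 2.99 and a highest value of 13.10 against 19.42, so that levels and sizes of change in Rh41 cannot be set beside those of the other lines. It is not known which scale comes closer to real ratios, and every fold holds for the deposited values only. The percentile of a gene among all named clusters of its own array was used to set the same gene beside itself across lines. A rescaling of whole arrays does not change it. Separate normalization can also reorder genes, however, so percentile differences between Rh41 and the other lines may partly reflect processing. Arrays of a group correlated at 0.983 or more. A mean under 5 was called low signal, as array values near background understate changes. The same cut was used on both scales. It does not mark background, since some markers of other cell types lay above it. Lineage markers were checked against the labels. Parental NCI-H520 had means of 15.98 for EPCAM, 14.08 for KRT19 and 15.59 for SOX2, but the squamous keratin KRT5 was at low signal with a mean of 3.72. Parental SJCRH30 had means of 15.33 for MYOG and 12.65 for DES, and parental Rh41 had means of 11.007 and 9.60 on its own scale. None of the 3 measured leukocyte and 3 endothelial markers passed the threshold in any line. PTPRC, which defines leukocytes, had means of 4.01 to 4.61, and CD3E reached 5.80, while CDH5, which defines endothelium, had means of 3.06 to 5.20, and VWF lay between 6.03 and 6.53.

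Promoter sequence from RefSeq (GRCh38.p14) was at hand for 5 of the 10 genes, in 8 windows of 250 bases before a transcription start. It is shown for DKK1 and LGR4, the genes with such a window that rose in Rh41 below. The core of the TCF/LEF motif is in capitals in the form CTTTGA, or TCAAAG on the opposite strand, and other forms were not searched. LEF1 and its relatives bind this core, and DKK1 is known as a target of beta-catenin. DKK1 lies on chromosome 10 (chr10:52314031-52314280, plus strand) and LGR4 on chromosome 11 (chr11:27472791-27473040, minus strand), each written 5′ to 3′ with the last base next to the start.
DKK1: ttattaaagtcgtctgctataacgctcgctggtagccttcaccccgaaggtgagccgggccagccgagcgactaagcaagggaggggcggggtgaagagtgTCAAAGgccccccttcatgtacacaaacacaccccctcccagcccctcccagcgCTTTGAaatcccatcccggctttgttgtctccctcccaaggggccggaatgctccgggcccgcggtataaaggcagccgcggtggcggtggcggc
LGR4: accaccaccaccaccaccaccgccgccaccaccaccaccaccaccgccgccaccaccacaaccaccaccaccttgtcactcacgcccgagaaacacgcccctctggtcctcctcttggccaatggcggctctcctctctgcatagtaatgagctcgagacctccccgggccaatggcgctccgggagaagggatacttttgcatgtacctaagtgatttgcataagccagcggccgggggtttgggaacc
The DKK1 window held the core in this form 2 times, beginning 149 and 95 bases before the start, and the LGR4 window held none. Of 35116 such windows of all genes, 11.2% held this form at least once and 0.977% held it at least 2 times. The other windows, which belonged to LGR6, LEF1 and RNF43, held no match. A match describes the sequence and does not show binding. LGR5, DKK2, DKK3, AXIN2 and ZNRF3 have no sequence shown here. The remaining genes lie on chromosome 12 (LGR5), chromosome 1 (LGR6), chromosome 4 (DKK2 and LEF1), chromosome 11 (DKK3), chromosome 17 (AXIN2 and RNF43) and chromosome 22 (ZNRF3).

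Before selection, the parental lines differed in both ligases and in AXIN2. RNF43 was far higher in the squamous line than in SJCRH30, with 14.31, 14.39 and 14.09 in parental NCI-H520 and 4.43, 4.19 and 3.97 in parental SJCRH30. This was a log2 difference of -10.07 (SE 0.20, limma adjusted p = 3.77e-13, SJCRH30 minus NCI-H520, 3 arrays each), the 18th largest in size of 17709 clusters, and SJCRH30 was at low signal. The values of ZNRF3, the other ligase, were 11.43, 10.98 and 11.32 in NCI-H520 and 7.47, 7.64 and 7.79 in SJCRH30, a difference of -3.61 (SE 0.20, adjusted p = 3.72e-09). AXIN2, a scaffold of the complex that destroys beta-catenin, stood at 10.79, 10.93 and 11.13 in NCI-H520 and 5.79, 5.75 and 4.74 in SJCRH30, a difference of -5.53 (SE 0.27, adjusted p = 8.67e-10). In each of these genes every NCI-H520 array lay above every SJCRH30 array. Differences between these lines cannot be told apart from differences between their tumour types. LEF1 was high in both lines, at 9.95, 10.03 and 10.37 in NCI-H520 and 10.14, 9.69 and 9.26 in SJCRH30. Its difference of -0.42 (SE 0.24, adjusted p = 0.175) did not pass the threshold of an adjusted p under 0.05 and more than 1.5-fold.

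The receptors were divided between the parental lines. LGR6 was higher in NCI-H520, with 8.78, 9.68 and 8.82 against 3.79, 3.71 and 4.02 in SJCRH30 (difference -5.25, SE 0.25, adjusted p = 6.82e-10). LGR4 was higher in SJCRH30, with 10.68, 10.69 and 10.45 against 7.88, 8.24 and 7.76 (difference 2.65, SE 0.20, adjusted p = 9.16e-08). LGR5 was at low signal in both, with a difference of 1.44 in favour of SJCRH30 (SE 0.28). LGR4 was thus above low signal in both lines and LGR6 in NCI-H520. Among the secreted modulators, DKK2 was higher in NCI-H520 (difference -4.45, SE 0.27) and DKK3 higher in SJCRH30 (1.60, SE 0.31, adjusted p = 0.000606). In NCI-H520, DKK3 was at low signal with a mean of 4.84. DKK1 was at low signal in both and did not pass the test (0.18, SE 0.23, adjusted p = 0.563), and its sign turned without the first NCI-H520 parental array (-0.031). In all, 3 of the 10 genes were higher and 5 lower in parental SJCRH30, where 22.2% of all named clusters were higher and 22.1% lower. These counts include LGR5 and DKK2, whose parental values entered the choice of the family, so nothing is read from them. These parental arrays are the same ones that serve as controls for the resistant cells below.

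By percentile within the array, parental Rh41 was placed above both other parental groups for LGR5 and below both for LGR4. The median percentile of LGR5 was 78.1 in parental Rh41, 24.6 in parental SJCRH30 and 5.38 in parental NCI-H520. For LGR4 it was 39.7, 87.5 and 64.9 in the same order, and for LGR6 it was 21.6, 15.2 and 73.3. LGR6 was thus placed low in both rhabdomyosarcoma lines and high in the squamous line. RNF43 and AXIN2 were placed lower in both rhabdomyosarcoma lines than in the squamous line, RNF43 at 19.97 in Rh41 and 22.8 in SJCRH30 against 98.6 in NCI-H520, and AXIN2 at 22.8 and 44.9 against 89.1. LEF1 was at 68.8, 80.5 and 83.2. These percentiles are descriptions and were not tested, and neither was the part of separate normalization in them. Among the markers, KRT5 was at 49.8, 13.1 and 12.6 in parental Rh41, SJCRH30 and NCI-H520, and LYZ at 8.02, 12.8 and 30.1.

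**Figure D1:**
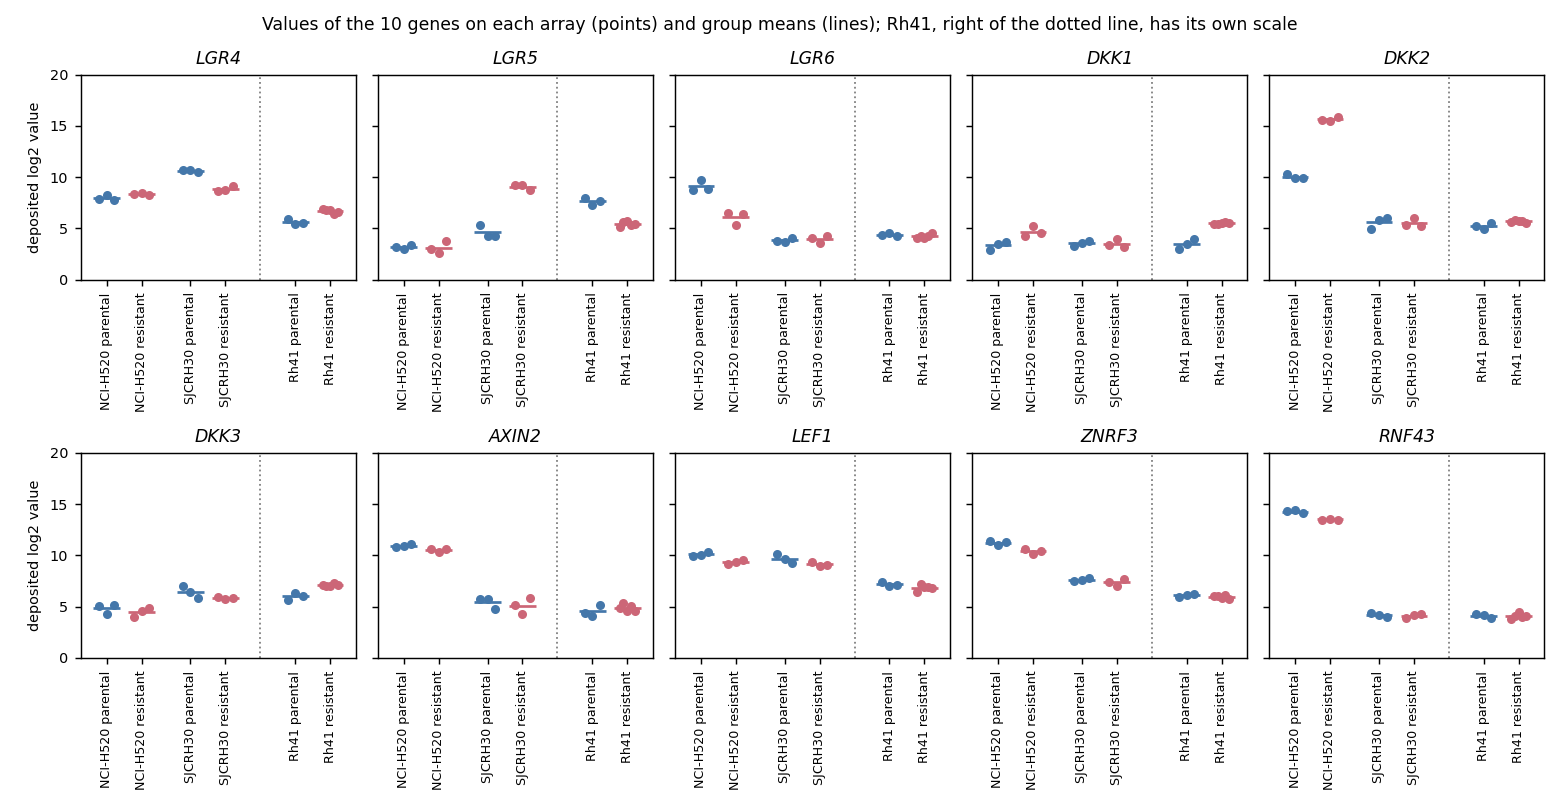
Deposited log2 value (vertical axis) of each gene on each array (points) with group means (lines), parental in blue and resistant in red, and the Rh41 arrays right of the dotted line on their own scale. DKK2 lay between 15.51 and 15.88 on the resistant NCI-H520 arrays, and LGR5 between 8.75 and 9.20 on the resistant SJCRH30 arrays.

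In NCI-H520, DKK2 and DKK1 were higher in resistant cells and LGR6, LEF1, ZNRF3 and RNF43 were lower. DKK2 was at 10.30, 9.95 and 9.93 on the parental arrays and at 15.56, 15.51 and 15.88 on the resistant ones. The groups lay far apart and the arrays within each differed little. The log2 change was 5.60 (SE 0.20, 3 arrays each), or 48.3-fold, the 11th largest in size of all 17709 clusters, and it took DKK2 from a median percentile of 82.6 to 99.4. DKK1, the LRP5 and LRP6 antagonist, was at 2.93, 3.50 and 3.66 in parental and 4.23, 5.27 and 4.57 in resistant cells. Its groups did not overlap and the change was 1.33 (SE 0.28), or 2.51-fold, from low signal to a mean of 4.69 that is still low. DKK3 overlapped and was at low signal in both groups, with 5.04, 4.27 and 5.21 against 4.04, 4.58 and 4.89 (change -0.34, SE 0.29).

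The receptors behaved differently from each other in this line. LGR6 was at 8.78, 9.68 and 8.82 in parental and at 6.49, 5.38 and 6.44 in resistant cells. Every resistant array lay below every parental one, by a mean of -2.99 (SE 0.33), or 7.95-fold, and the change ranked 122nd in size. LGR4 was slightly higher, at 7.88, 8.24 and 7.76 against 8.40, 8.47 and 8.25. Its groups did not overlap, but the change of 0.42 (SE 0.20) was below the 1.5-fold threshold. LGR5 was at low signal on all 6 arrays, between 2.60 and 3.79, with a change of -0.06 (SE 0.28).

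LEF1 and the ligases RNF43 and ZNRF3 were lower in the resistant squamous cells by less than 2-fold, and AXIN2 was lower by less than the threshold. RNF43 was at 14.31, 14.39 and 14.09 in parental and 13.49, 13.58 and 13.48 in resistant cells, a change of -0.75 (SE 0.18), or 1.68-fold. ZNRF3 was at 11.43, 10.98 and 11.32 against 10.60, 10.18 and 10.47, a change of -0.82 (SE 0.20), or 1.77-fold. LEF1 was at 9.95, 10.03 and 10.37 against 9.13, 9.39 and 9.53, a change of -0.76 (SE 0.20), or 1.70-fold. AXIN2 was at 10.79, 10.93 and 11.13 against 10.65, 10.32 and 10.59, and its change of -0.43 (SE 0.19) was below 1.5-fold. The groups did not overlap in any of these 4 genes, which stayed well above low signal in resistant cells. On values mapped to the narrower Rh41 distribution the changes of LEF1 (-0.41), ZNRF3 (-0.44) and RNF43 (-0.38) lost the threshold. So did LEF1 without parental replicate 3 (-0.64) or resistant replicate 1 (-0.65), and ZNRF3 without parental replicate 3 (-0.78) or resistant replicate 2 (-0.70). Past the threshold were 2 of the 10 genes that rose and 4 that fell, where 10.1% of all named clusters rose and 9.90% fell. The median change of the 10 genes was -0.39, against 0.01 for all clusters, and as the family was chosen with this contrast in view nothing is read from these counts.

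In SJCRH30, LGR5 was higher and LGR4 lower in resistant cells. LGR5 was at 5.36, 4.30 and 4.23 on the parental arrays and at 9.20, 9.20 and 8.75 on the resistant ones. All resistant arrays stood well above all parental arrays, of which the first was the highest. The change was 4.42 (SE 0.28, 3 arrays each), or 21.4-fold from low signal, the 13th largest in size, and the median percentile went from 24.6 to 76.6. LGR4 was at 10.68, 10.69 and 10.45 in parental and at 8.60, 8.74 and 9.13 in resistant cells. Its groups did not overlap either, and the change was -1.78 (SE 0.20), or 3.44-fold, ranked 259th. LGR4 stayed above low signal in resistant cells, at a median percentile of 72.5. LGR6 was at low signal on all 6 arrays, from 3.59 to 4.25.

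The other 8 genes overlapped between parental and resistant SJCRH30 cells, and none passed the threshold. LEF1 was at 10.14, 9.69 and 9.26 against 9.34, 9.004 and 9.06, a change of -0.56 (SE 0.23). ZNRF3 changed by -0.25 (SE 0.22), AXIN2 by -0.31 (SE 0.35) and RNF43 by -0.08, the last at low signal in both groups. DKK3 was at 7.04, 6.44 and 5.85 against 5.92, 5.80 and 5.88, so that its parental arrays spread widely and its resistant arrays closely, with a change of -0.58 (SE 0.26). DKK1 and DKK2, the genes that were higher in resistant NCI-H520, changed by -0.02 and -0.07 here. Without parental replicate 3, DKK3 (-0.87) and LEF1 (-0.78) passed the threshold. Past it on all arrays were 1 gene that rose and 1 that fell, where 9.42% of all named clusters rose and 9.28% fell. The median change of the 10 genes was -0.17, against 0.01 for all clusters. As LGR5 in this contrast helped to choose the family, nothing is read from these counts.

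In Rh41, LGR4, DKK1 and DKK3 rose and LGR5 fell. No change in this line is named among those that led to the family. Earlier results of these data were known by then, however, so the tests are not fully independent of the choice. LGR5 was at 7.97, 7.28 and 7.66 in parental and at 5.10, 5.66, 5.68, 5.37 and 5.43 in resistant cells. Every resistant array lay below every parental array. The change was -2.19 (SE 0.17, 3 against 5 arrays, limma adjusted p = 9.19e-06), or 4.57-fold, and it ranked 63rd in size of 17709. LGR4 was at 5.97, 5.41 and 5.53 against 6.88, 6.77, 6.77, 6.38 and 6.58. It rose by 1.04 (SE 0.15, adjusted p = 0.000706), or 2.05-fold, without overlap between the groups. LGR6 was at low signal, between 4.04 and 4.52 on all 8 arrays, and did not pass the test (-0.15, SE 0.13, adjusted p = 0.451). The LGR5 and LGR4 changes were thus opposite in direction to those in SJCRH30. The Rh41 percentiles, which a rescaling of whole arrays does not change, moved as the values did. They went from 78.1 to 37.6 for LGR5 and from 39.7 to 62.4 for LGR4.

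**Figure D2:**
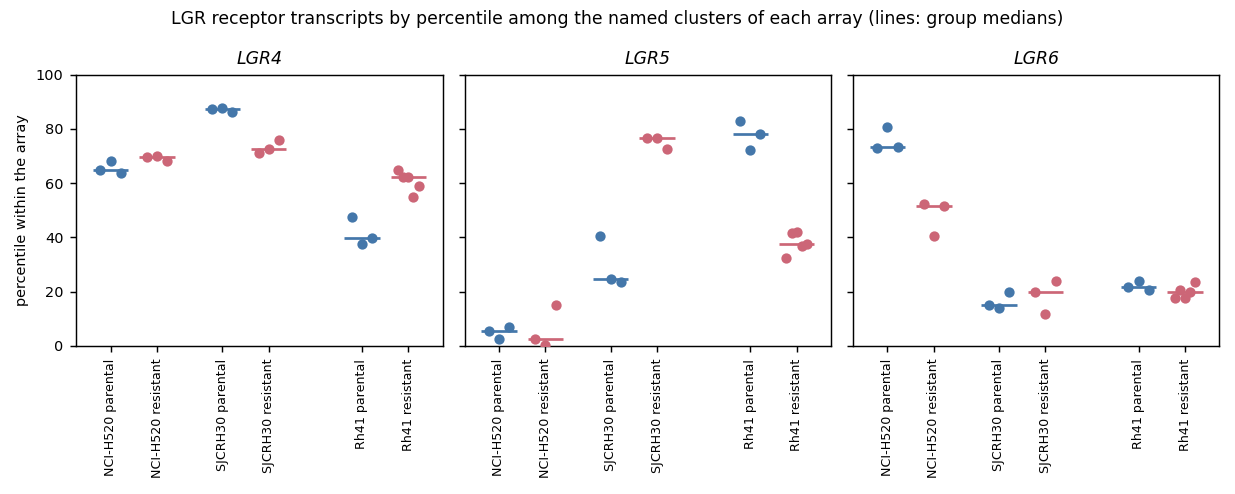
Percentile of LGR4, LGR5 and LGR6 among the named clusters of each array (vertical axis, points are arrays, lines are group medians), parental in blue and resistant in red. The median for LGR5 went from 24.6 to 76.6 in SJCRH30 and from 78.1 to 37.6 in Rh41.

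Of the secreted modulators, DKK1 and DKK3 rose in resistant Rh41 cells and DKK2 was higher by less than the fold threshold. DKK1 was at 3.03, 3.47 and 3.94 in parental and at 5.41, 5.42, 5.48, 5.64 and 5.52 in resistant cells. The parental arrays were at low signal and the resistant arrays lay close together above all of them. DKK1 rose by 2.02 (SE 0.17, adjusted p = 1.59e-05), or 4.04-fold, the 75th largest change in size. Its resistant mean of 5.50, at a median percentile of 38.5, was little above low signal. The endothelial marker VWF had a mean of 6.05 on the same arrays. DKK3 was at 5.69, 6.36 and 6.07 against 7.07, 7.05, 7.03, 7.30 and 7.12, and it rose by 1.07 (SE 0.14, adjusted p = 0.000391), or 2.11-fold. DKK2 was at 5.24, 4.93 and 5.56 against 5.61, 5.78, 5.68, 5.76 and 5.57. Its groups did not overlap and its adjusted p was 0.0407, but the change of 0.44 (SE 0.13) was 1.36-fold and so under the fold threshold. It passed without parental replicate 3 (0.60).

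LEF1, AXIN2, ZNRF3 and RNF43 did not pass the test in Rh41. LEF1 had a change of -0.32 (SE 0.17, adjusted p = 0.211), AXIN2 one of 0.31 (SE 0.24, adjusted p = 0.407) and ZNRF3 one of -0.16 (SE 0.12, adjusted p = 0.362). RNF43 was at low signal in both groups, with means of 4.12, and its adjusted p was 0.992. AXIN2 was at low signal too, with means of 4.59 in parental and 4.90 in resistant cells. A p above the threshold does not show that these genes were equal. In all, 3 of the 10 genes rose and 1 fell, where 5.69% of all named clusters rose and 3.08% fell. The median change of the 10 genes was 0.16, against -0.03 for all clusters.

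**Figure D3:**
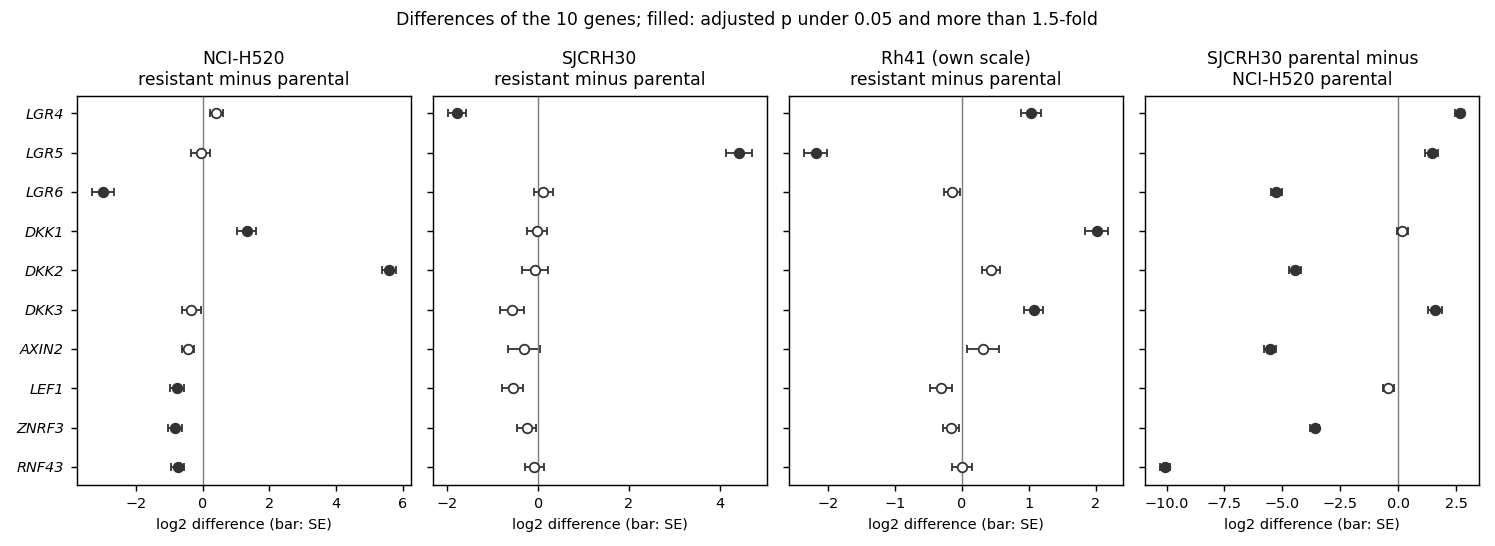
Log2 difference of each gene (horizontal axis, bars are SE) for resistant minus parental cells of each line and for parental SJCRH30 minus parental NCI-H520, filled where the adjusted p was under 0.05 and the change more than 1.5-fold. DKK2 in NCI-H520 (5.60) and LGR5 in SJCRH30 (4.42) were the values known when the family was chosen, and each panel has its own axis range.

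The changes in NCI-H520 and SJCRH30, which share 1 scale, were also set against each other in 1 fit. The difference of the changes, SJCRH30 minus NCI-H520, was -5.67 for DKK2 (SE 0.38), 4.48 for LGR5 (SE 0.43), 3.11 for LGR6 (SE 0.42), -2.20 for LGR4 (SE 0.28) and -1.35 for DKK1 (SE 0.38). These 5 genes passed the threshold, 2 of them with the higher change in SJCRH30 and 3 with the lower, where 11.3% of all named clusters had the higher and 11.8% the lower. Both contrasts were in view when the family was chosen, through DKK2 and LGR5. The values are therefore a description, and nothing is read from these calls or counts. AXIN2 (0.12), LEF1 (0.21), ZNRF3 (0.57, SE 0.30), RNF43 (0.67, SE 0.27) and DKK3 (-0.24) did not pass the threshold. Ordered by mean over the 4 groups, LGR4 stood highest in parental SJCRH30, followed by resistant SJCRH30, resistant NCI-H520 and parental NCI-H520, with no overlap between neighbours. LGR5 stood highest in resistant SJCRH30, then parental SJCRH30, and the NCI-H520 groups overlapped. For LGR6, AXIN2, ZNRF3 and RNF43 the order was parental NCI-H520, then resistant NCI-H520, then the SJCRH30 groups, which overlapped. DKK2 had resistant above parental NCI-H520, and both above the overlapping SJCRH30 groups. DKK1 was highest in resistant NCI-H520 and the other 3 groups overlapped, DKK3 was higher in both SJCRH30 groups than in both NCI-H520 groups with overlap within each line, and all neighbours overlapped for LEF1.

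The rest of the Wnt pathway was followed through 87 further genes written down by role, of which 81 were measured. In NCI-H520, 10 rose and 8 fell, in SJCRH30 5 rose and 10 fell, and in Rh41 4 rose and 5 fell. These were 22.2%, 18.5% and 11.1% of the list, near the 20.02%, 18.7% and 8.78% of all named clusters past the threshold in either direction. The median change of these genes was 0.07, -0.02 and -0.10 in the same order, and no gene of the list passed the threshold in all 3 lines. In resistant NCI-H520 the largest rise was that of WIF1, a secreted protein that binds Wnts, from a mean of 7.72 to 11.84 (change 4.12, SE 0.26, adjusted p = 9.90e-07). WNT5A, a ligand that mostly signals without beta-catenin, rose by 2.12 (SE 0.19, adjusted p = 1.56e-05). TLE4 and TLE1, co-repressors that bind TCF and LEF factors, rose by 1.54 (SE 0.26, adjusted p = 0.00118) and 1.48 (SE 0.19, adjusted p = 0.000219). The falls were led by TNFRSF19, a Wnt target, at -2.56 (SE 0.24, adjusted p = 2.22e-05), and by the ligand WNT11 at -1.91 (SE 0.31, adjusted p = 0.00102). NKD1, a feedback inhibitor induced by beta-catenin, changed by -1.16 (SE 0.18, adjusted p = 0.000677), from a mean of 14.76 to 13.60, and DVL3, which relays the signal from Frizzled, by -1.11 (SE 0.19, adjusted p = 0.00119). Of the 9 feedback and target genes on the list, 3 fell and none rose in this line, and of 14 receptors and co-receptors 4 rose and 1 fell, where 10.1% of all named clusters rose and 9.90% fell. Of 11 nuclear factors 3 rose and none fell, of 14 inhibitors 2 rose and 2 fell, and of 18 ligands 1 rose and 1 fell. These counts by role were picked after they had been seen, and nothing is read from them.

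In resistant SJCRH30, 4 of 10 cytoplasmic transducers fell and 1 rose, where 9.28% of all named clusters fell and 9.42% rose, and the other 6 falls were spread over ligands, receptors, inhibitors and nuclear factors. The transducers were singled out after their counts had been seen, and nothing is read from these. CTNNB1, the gene of beta-catenin, fell from a mean of 14.58 to 13.30 (change -1.28, SE 0.18, adjusted p = 0.000327). BTRC, the ligase subunit that marks beta-catenin for destruction, had a change of -1.43 (SE 0.18, adjusted p = 0.00017). TLE1, which rose in NCI-H520, fell here (-1.41, SE 0.18, adjusted p = 0.000202). The difference between the lines was -2.89, a description given after both changes had been seen. SFRP1, a secreted Wnt inhibitor, fell to low signal (-1.35, SE 0.23, adjusted p = 0.00146). The rises were those of PROM1, a surface protein used as a stem cell marker (1.61, SE 0.19, adjusted p = 7.61e-05), WLS, which carries Wnts to the cell surface (1.49, SE 0.18, adjusted p = 0.000138), the receptor FZD3 (1.22, SE 0.21, adjusted p = 0.00122) and the ligand WNT5B (0.91, SE 0.21, adjusted p = 0.0099), with AXIN1 as the fifth. None of the 4 R-spondins, the ligands of the LGR receptors, passed the threshold in any line.

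In resistant Rh41, TLE4 rose by 1.21 (SE 0.14, adjusted p = 0.000148), CCND1, the gene of cyclin D1, by 1.06 (SE 0.10, adjusted p = 5.36e-05), FZD6 by 0.76 (SE 0.14, adjusted p = 0.0033) and WNT5A by 0.60 (SE 0.13, adjusted p = 0.00772). WLS, which rose in SJCRH30, fell here (-0.98, SE 0.10, adjusted p = 7.62e-05). MYC, a target of beta-catenin in many tissues, had a change of -0.74 (SE 0.09, adjusted p = 0.000319). APCDD1, a Wnt inhibitor at the cell surface, had one of -0.73 (SE 0.20, adjusted p = 0.0248) and PYGO1, a nuclear cofactor of beta-catenin, one of -0.72 (SE 0.17, adjusted p = 0.013). APCDD1 lost its call when parental replicate 1 (-0.77), parental replicate 2 (-0.54), resistant replicate 2 (-0.70) or resistant replicate 3 (-0.70) was left out. WNT5A lost it when parental replicate 2 (0.48), resistant replicate 2 (0.55) or resistant replicate 3 (0.57) was left out, and PYGO1 when parental replicate 1 was (-0.57).

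**Figure D4:**
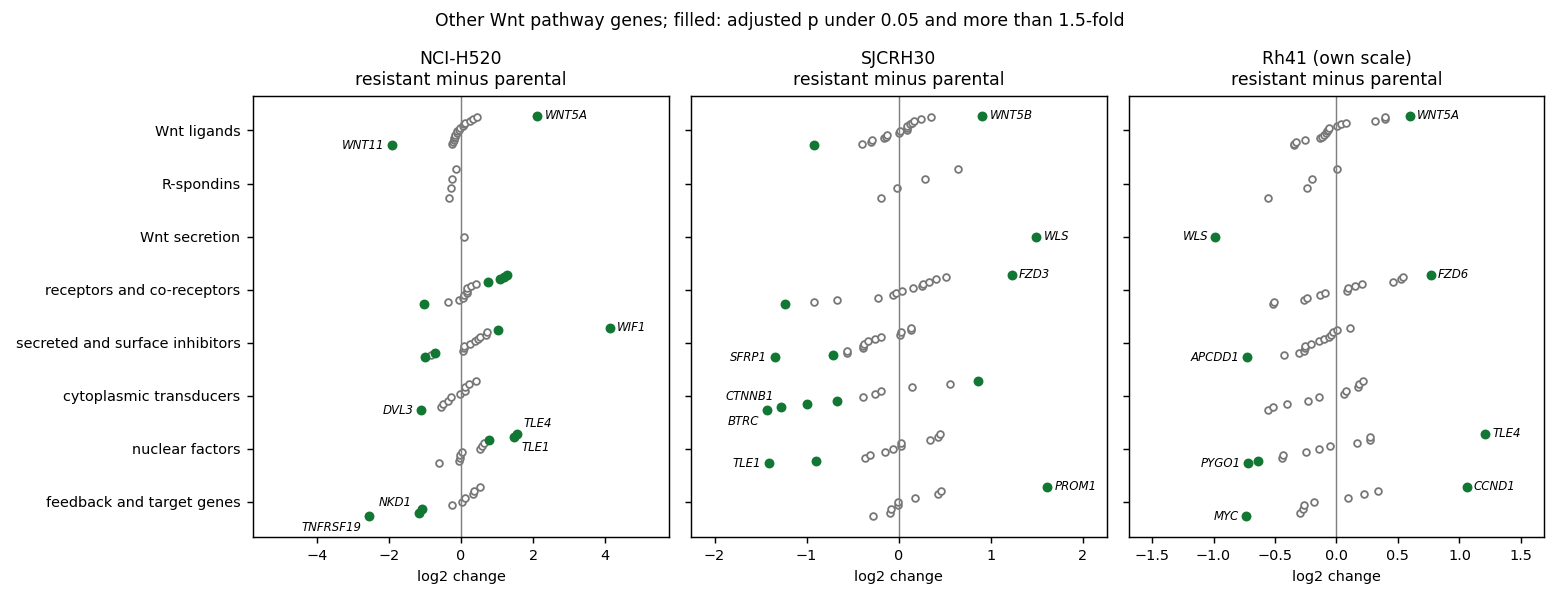
Log2 change, resistant minus parental (horizontal axis), of 81 other Wnt pathway genes by role (rows, points are genes), filled where the adjusted p was under 0.05 and the change more than 1.5-fold, with the up to 4 largest in each direction named. WIF1 in NCI-H520 lay at 4.12, and each panel has its own axis range.

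Genes with patterns most like those of LGR5 and DKK2 were found by Pearson correlation of log2 values over the 12 arrays of NCI-H520 and SJCRH30. These points share arrays and fall into 4 groups, so the correlations mostly describe group differences. For LGR5 they were LAPTM5 (r = 0.990), DPYD (r = 0.987) and STATH (r = 0.984). LAPTM5, a lysosomal membrane protein of blood cells, had means of 7.14 in parental and 14.06 in resistant SJCRH30, and 3.92 and 3.82 in NCI-H520. For DKK2 they were RAB38 (r = 0.996), SEMA4D (r = 0.994) and CRYBG1 (r = 0.993). RAB38, a small GTPase of melanosome transport, had means of 8.15 in parental and 12.80 in resistant NCI-H520, and 3.74 and 3.81 in SJCRH30.

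Markers of lineage and of other cell types also moved between parental and resistant cells. In NCI-H520 the muscle marker FGFR4 rose (0.83, SE 0.25), and 3 of 4 measured squamous and epithelial markers rose, SOX2 by 0.74 (SE 0.19), KRT19 by 1.12 (SE 0.21) and EPCAM by 0.88 (SE 0.18), and the summed log2 level of the 4 genes lay between 49.2 and 49.6 on parental and between 51.4 and 52.4 on resistant arrays. In SJCRH30, KRT19 (-1.44) and EPCAM (-1.26) fell, as did 1 of 5 muscle markers, MYOG (-0.87, SE 0.18), and the sum of the muscle markers lay between 60.3 and 60.6 on parental and between 58.6 and 59.2 on resistant arrays. In Rh41, DES rose (0.86) while MYOD1 (-0.62) and FGFR4 (-0.78) fell, and the epithelial marker KRT19 rose (0.73, SE 0.12). The fibroblast marker PDGFRA fell in Rh41 (-1.55, SE 0.16, adjusted p = 8.63e-05), 1 of 5 fibroblast markers, whose sum lay between 28.7 and 30.5 on parental and between 27.2 and 28.4 on resistant arrays. In parental SJCRH30 the mean of PDGFRA was 9.21, above COL1A2 (7.83), COL1A1 (6.13), DCN (4.99) and LUM (3.82). Its fall and that of the sum are therefore not read as a change in fibroblast content. The summed leukocyte markers ran from 12.8 to 14.3 in parental and from 13.1 to 14.5 in resistant SJCRH30. In NCI-H520 their sum lay between 13.9 and 14.8 on parental and between 15.1 and 16.1 on resistant arrays. The part of these shifts in the changes of the 10 genes was not tested.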

How the data were processed

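Total RNA was hybridized to Affymetrix Clariom S arrays. The authors deposited log2 values made by RMA with quantile normalization of the scanned arrays, for which no RMA version was found in the sources used here. The values were used unchanged. Tests ran over the 17709 transcript clusters, of 21448, that had a single gene symbol, and 3739 with none or several were left out. limma 3.58.1 (R 4.3.3) was run separately for each line with lmFit and eBayes, two-sided, and p-values were adjusted by Benjamini-Hochberg over all 17709 clusters. The parental lines, and the difference of the changes, were fitted on NCI-H520 and SJCRH30 together. The threshold for a rise or a fall was an adjusted p below 0.05 together with more than 1.5-fold. SE are moderated standard errors. Precision is limited by the number of arrays.

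The members and lists were chosen with earlier results of these data known, and the tests of Rh41 and of the pathway genes carry this limit. Named were all 10 genes, up to 4 largest rises and falls past the threshold per line among other Wnt pathway genes, those past it in all 3 lines, the 3 genes most like LGR5 and DKK2, and the lineage markers. AXIN1, the difference of TLE1 between the lines, and the counts by role were picked after they had been seen. WNT9B, PORCN, FZD8, DVL1, TCF7 and EPHB2 of the pathway list, and TP63 of the markers, had no cluster of their own symbol here. The alternatives were another variance prior, a filter on mean log2 values under 5, all clusters, other thresholds, values mapped onto the other scale, a replicate block, 1 fit of all groups, and each array left out in turn. The fit was tested on simulated data. Figures used Python 3.11.15 and matplotlib 3.10.9.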

Additional observations from a re-analysis of the deposited data

Results flagged for a closer look

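The difference of the resistance changes, SJCRH30 minus NCI-H520, passed the threshold of the interaction fit for LGR4 (-2.20), LGR5 (4.48), LGR6 (3.11), DKK1 (-1.35) and DKK2 (-5.67). The family was chosen with these contrasts in view, so the values describe the pattern and carry no p. Nothing is read from their passing the threshold.

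LGR4 and LGR5 moved in opposite directions in the rhabdomyosarcoma lines, with no overlap between parental and resistant arrays in either line. LGR4 changed by 1.04 in Rh41 and by -1.78 in SJCRH30, and LGR5 by -2.19 in Rh41 and by 4.42 in SJCRH30. The difference between these lines was not tested, because their values lie on different scales.

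Of 18 genes looked at on the 5 resistant Rh41 arrays, the family and the named pathway genes of that line, none had an array far from the others.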

How the results depend on the processing

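In NCI-H520, the count of the 10 genes past the threshold fell from 6 to 3 at more than 2-fold and to 3 on values mapped to the Rh41 distribution, and it was 4 to 6 when single arrays were left out. In SJCRH30 it was 2, with 2 to 4 on leaving out single arrays. In Rh41 it was 4, with 4 to 5, for the parental lines 8, with 8 to 9, and for the difference of the changes 5 throughout. The pathway count in SJCRH30 fell from 15 to 8 at more than 2-fold and to 8 on the Rh41 distribution. In Rh41 it was 9, but 19 by adjusted p alone, 2 at more than 2-fold and 17 on the distribution of the other arrays.

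The sign of RNF43 in Rh41 (-0.003) turned with the replicate block (0.022) and when single arrays were left out (from -0.13 to 0.068), and that of DKK1 between the parental lines (0.18) did so too (from -0.031 to 0.33). WNT5B in SJCRH30 lost its call on the Rh41 distribution (0.47), and APCDD1 in Rh41 in 1 fit of all 6 groups (adjusted p = 0.106). The labels do not say if the replicate numbers pair the arrays, and the main fits did not pair them. Same-numbered arrays had correlations of deviations of -0.18 to 0.28 in Rh41, 0.044 to 0.11 in NCI-H520 and -0.015 to 0.12 in SJCRH30. In NCI-H520 each parental array correlated best with its own number, a hint from the data and not from the design. With the block, 6, 2, 4, 8 and 5 of the 10 genes passed in the order above, and the pathway count in NCI-H520 went from 18 to 20; only PYGO1 in Rh41 lost its call among named genes (-0.63). Low signal limits DKK1 in every group but resistant Rh41, LGR6 outside NCI-H520, and RNF43 in rhabdomyosarcoma cells. It also limits LGR5 in NCI-H520 and in parental SJCRH30, DKK3 in NCI-H520, and AXIN2 in Rh41. The cut does not clear the rest, since the endothelial marker VWF had group means of 6.03 to 6.53. Lower than VWF in the same group were LGR6 in resistant NCI-H520 (6.10), LGR4 in parental Rh41 (5.64) and LGR5 in resistant Rh41 (5.45). So were AXIN2 and DKK2 in SJCRH30 and DKK2 in Rh41, and all of these may also be near background.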
